A study of Zea mays with 6 samples.

Results

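The regions described here are wide peaks of KNOTTED1 (KN1) chromatin immunoprecipitation that appeared in the second tassel sample of maize and in neither of the other lists. They were chosen by their width and position in the deposited peak lists: a second-tassel peak on chromosomes 1 to 10 wider than 500 bp that shared no base with any peak of the ear or of the first tassel. Of the 14918 peaks of the second-tassel list, 14893 lay on the numbered chromosomes and 2942 of these were wider than 500 bp. An ear peak overlapped 1907 of the wide peaks, a first-tassel peak alone overlapped 74 more, and the remaining 961 are the members. They made up 6.45% of the list on the numbered chromosomes and 32.7% of its wide peaks. Without the ear list in the rule 2633 peaks would have been members, and without the first-tassel list 1035, so the number rests mainly on the ear list.

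KN1 is a homeodomain transcription factor of the KNOX class, the founding member of that plant family. It is made in shoot meristems, where it keeps cells from leaving the dividing, undifferentiated state, and maize plants that lose it can fail to keep their meristems and form sparse tassels and small ears. KNOX proteins bind DNA through their homeodomain together with partner proteins of the BELL class, and a gene of gibberellin breakdown, ga2ox1, is a well described direct target of KN1 in maize. The genes and the DNA letters under the peaks were not analysed here, because the sources used here do not name the build behind the coordinates.

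All groups were field-grown plants of the inbred B73, a standard maize line, and the labels name no mutation or treatment. Chromatin from tassel primordia (the young male inflorescence, 2 samples) and from ear primordia (the young female inflorescence, 1 sample) was precipitated with an antibody against KN1, and an input library was made beside each. The second tassel sample is titled as tassels 2 and 3 and may hold more than 1 harvest, and the labels leave unsaid if the tassels were harvested apart. The average fragment was about 400 bp long in tassel chromatin and 100 bp in ear chromatin, tassel libraries alone had barcoded adapters, and ear libraries alone were size-selected on a gel, so tissue and library preparation cannot be told apart. The lists held 165023 ChIP tags in peaks for the second tassel, 87317 for the first tassel and 226165 for the ear, and how deeply each library was sequenced is unknown. The authors' false discovery rate (FDR), a percentage per peak, reached at most 5.66% in the second-tassel list, but was 100% for 41.8% of first-tassel peaks and for 96.2% of ear peaks. Absence from those lists, and nearness to their peaks, are therefore read against lists of lower confidence than the one that holds the members. Whether ear ChIP and input took their proper roles when ear peaks were called was not checked, and that would change what an ear peak is. With 1 list of members and 1 ear list no test across samples was possible, so each share carries a 95% Wilson interval that takes in the counting error of peaks and nothing else.

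The members were peaks of modest size. Their median width was 843 bp (quartiles 629 and 1094), and their median of 12 ChIP tags per peak (quartiles 8 and 17) lay below the median of 15 (quartiles 9 and 23) in the 1907 wide peaks that an ear peak overlapped. This difference lay in the wider peaks. The medians were 10 tags in both classes at 502 to 600 bp, and 12 against 18 at 1001 to 1250 bp. The 10335 peaks of 500 bp in no other list, the smallest width the second-tassel list holds, had a median of 8 tags (quartiles 5 and 12). Since a wider peak can hold more tags, tags per kb were also compared. These had a median of 13.6 in members, against 16.6 in wide peaks on ear peaks and 16.0 in the 500 bp peaks. Tags per kb divides by the width that chose the members, and the 500 bp peaks sit at the smallest width of the list, so the difference from the 500 bp peaks describes the choice as well. All 961 members together covered 861 kb and held 15721 tags, 9.55% of the tags in peaks of the list.

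Pooled over all tags, the members had lower confidence values than the classes they were compared with. The authors' score, which is 10 times the -log10 of the peak caller's p-value, had a median of 205 in members, 253 in wide peaks on ear peaks and 244 in the 500 bp peaks. At like tags the members' median score was slightly above that of wide peaks on ear peaks up to 24 tags. With 13 to 17 tags it was 274 against 262, and with 25 tags or more it was below, at 597 against 633. Against the 500 bp peaks it was lower in every band, as with 13 to 17 tags, at 274 against 564. At or below an FDR of 1% stood 639 of the 961 members (66.5%, interval 63.4 to 69.4), against 76.3% of the whole second-tassel list. The share was 74.1% (72.1 to 76.0) of wide peaks on ear peaks and 78.3% (77.5 to 79.1) of the 500 bp peaks. Pooled over all tags, fold enrichment over local background separated the classes least. Its medians were 116 in members, 112 in wide peaks on ear peaks and 123 in the 500 bp peaks. At like tags the fold was lower in members than in the 500 bp peaks from 7 tags up. With 13 to 17 tags it was 146 in members and in wide peaks on ear peaks, against 314 in the 500 bp peaks. With 4 to 6 tags it was 89.6 in members and in the 500 bp peaks. Of the 500 best scoring peaks of the list 24 were members, where members make up 6.45% of all its peaks. Wide peaks on ear peaks were 122 of the 500, where they make up 12.8% of all peaks. The 500 bp peaks in no other list were 322 of the 500, where they are 10335 of all 14893 peaks.

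Width and tags were only loosely related among members. Over the 961 members the Spearman correlation was 0.14 between width and tags and -0.43 between width and tags per kb, where width is part of the second measure. The 164 members of 502 to 600 bp had a median of 10 tags, and the 144 members wider than 1250 bp had a median of 14. The median score was 281 in the narrower band and 175 in the wider one. A member wider than most therefore usually had fewer tags per kb, and not many more tags. How the tags were spaced within a peak was not measured.

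**Figure D1:**
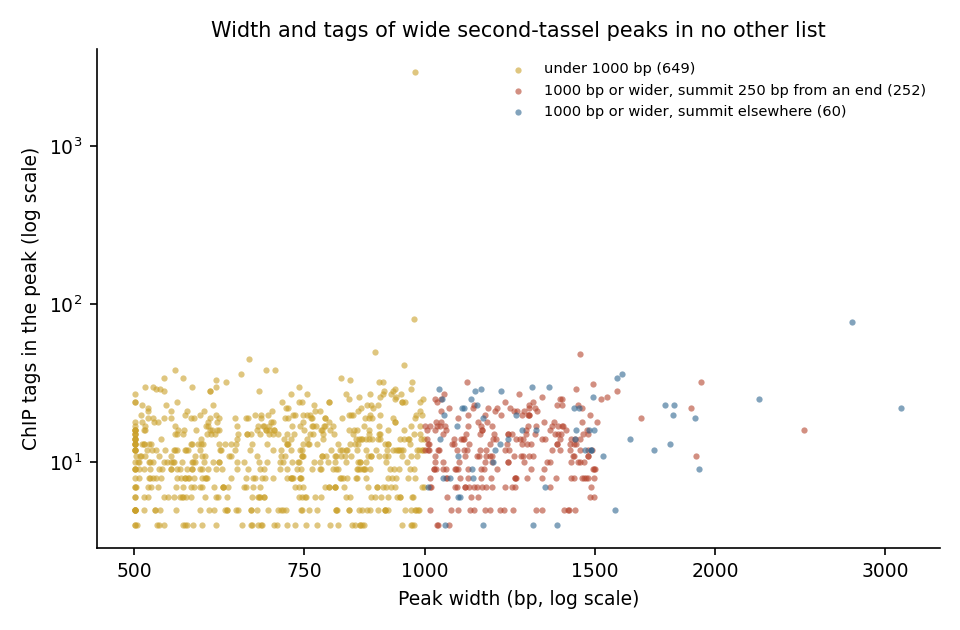
Each point is 1 of the 961 members, with peak width in bp on the horizontal axis and ChIP tags in the peak on the vertical axis, both on log scales, coloured by width and by the place of the summit. Tags hardly rise with width, 1 member stands alone at 2930 tags, and few members exceed 1500 bp.

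A single member differed from all the others in tags. The peak on chromosome 5 from 66107299 to 66108275 was 977 bp wide and held 2930 tags, 18.6% of all tags in members and 36.6 times the 80 tags of the next member. It held the most tags of any peak of the list on the numbered chromosomes, where the next peak, on an ear peak on chromosome 4 (62020370 to 62021676), held 373. Its fold enrichment was 298, while that chromosome 4 peak reached 7738. The nearest ear peak lay 48.6 kb away and the nearest first-tassel peak 83.0 kb away. Medians and shares below do not rest on it, and without it the members held 7.91% of the tags of the list.

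The other members with the most tags lay at very different distances from the ear list. One on chromosome 7 (91652705 to 91653678) held 80 tags at an 896-fold enrichment and lay 96.6 kb from the nearest ear peak. Another on chromosome 10 (138468184 to 138470951) held 77 tags at 90.9-fold, was the second widest at 2768 bp, and lay 138 kb from the nearest ear peak. On chromosome 4, the member from 159067097 to 159068544 held 48 tags at 832-fold, 105 kb from the ear list. No ear peak lay within 50 kb of these members. By contrast, the member on chromosome 5 from 213535977 to 213536864 held 50 tags at 373-fold and began or ended 812 bp from an ear peak. On chromosome 1 the member from 45778108 to 45778764, with 45 tags at 202-fold, lay 862 bp from one. On chromosome 9 the member from 115589378 to 115590076, with 38 tags at 85.1-fold, lay 688 bp from one. Of the remaining tag-rich members, that on chromosome 3 (187411202 to 187412153) held 41 tags and had the highest fold of all members, 1264, with an ear peak 17.5 kb away. Those on chromosome 4 (152695474 to 152696024) and chromosome 5 (215290485 to 215291169) held 38 tags each at 851-fold, and their ear peaks lay 22.7 and 48.8 kb away.

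The best scoring members were mostly narrow. After the peak with 2930 tags (score 3100) and the members just named on chromosome 7 (1841) and chromosome 4 (1678) came the member on chromosome 5 from 77542542 to 77543054, with 30 tags in 513 bp, a score of 1503 and a fold of 925. It was followed by a second region of that chromosome (120483081 to 120483606), with 29 tags in 526 bp, a score of 1355 and a fold of 894. The others of the 10 best were the chromosome 5 member of 38 tags and peaks of 27 to 34 tags on chromosome 8 (138575909 to 138576430), chromosome 5 (108308468 to 108308968) and chromosome 4 (46955265 to 46955826, and 165921949 to 165922485). Of these 10 members, 7 were 501 to 562 bp wide, close to the limit of the rule. A score of at least 1000 was held by 16 members and an FDR of 0 by 4.

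The 5 widest members, which include the chromosome 10 peak of 77 tags, differed in tags. The widest, on chromosome 7 from 127890895 to 127894011, spread 22 tags over 3117 bp, or 7.06 tags per kb, and lay 1.92 kb from an ear peak. On chromosome 9, the member from 25823052 to 25825521 held 16 tags in 2470 bp and lay 791 bp from a first-tassel peak. On chromosome 5, the member from 11786690 to 11788910 held 25 tags in 2221 bp and lay 132 bp from an ear peak. On chromosome 7, a further member from 110438532 to 110440463 held 32 tags in 1932 bp at 617-fold, with the nearest ear peak 61.8 kb away. A member at the middle of the tag range, on chromosome 3 from 176788449 to 176789299, held 12 tags in 851 bp at a fold of 13.4 and an FDR of 5.05%. It was not typical in those last values. The members' fold had a median of 116 and a lower quartile of 44.8, and their FDR a median of 0.41% and an upper quartile of 1.85%.

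The place of the summit differed between the longer members and the longer peaks on ear peaks of the same list. Every one of the 13904 second-tassel peaks under 1000 bp had its summit within 1 bp of its middle, so the summit says nothing about the 649 members under that width. Of the 312 members of 1000 bp or more, 252 (80.8%, interval 76.0 to 84.8) had the summit 250 bp from an end, to within 1 bp. That is where the summit lies in the 500 bp peaks of the list. In the whole list the share was 46.7% of the 989 peaks of 1000 bp or more, and in wide peaks on ear peaks it was 194 of 652 (29.8%, interval 26.4 to 33.4). With the ear list left out of the rule, which adds the peaks on ear peaks, the members' share would have been 50.3%. No summit of either class lay nearer to an end than 250 bp. The share with the summit 250 bp from an end was higher in members than in wide peaks on ear peaks on 10 of 10 chromosomes.

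**Figure D2:**
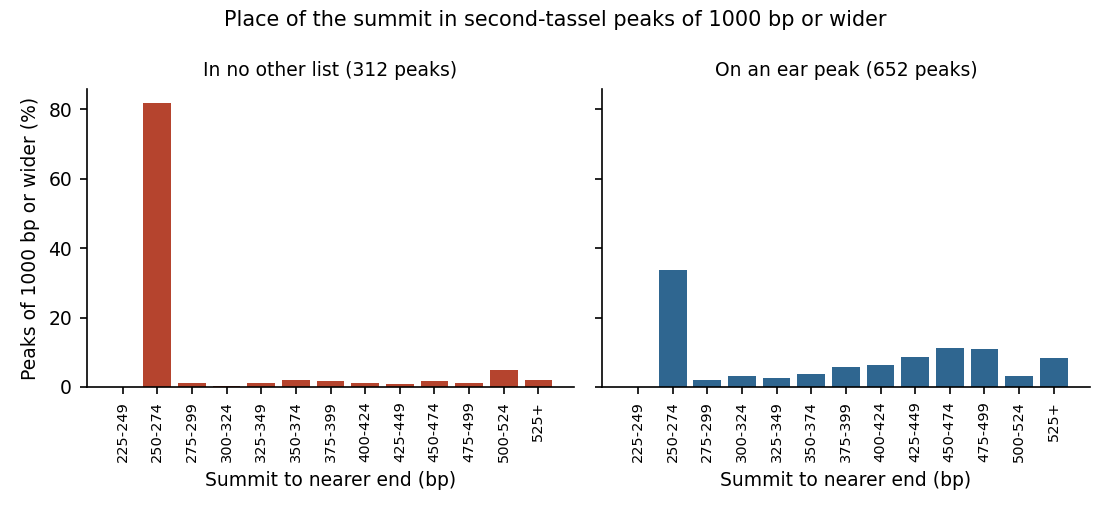
Bars give the percentage of second-tassel peaks of 1000 bp or more by the distance in bp from the summit to the nearer end of the peak, for 312 members (left) and 652 peaks on an ear peak (right). In members 81.7% fall in the bin that starts at 250 bp, against 33.7% of peaks on an ear peak.

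Tags differed between these classes, so the summit was also compared at like tags. Among peaks of 1000 bp or more, the share with the summit 250 bp from an end was 88.5% of 61 members with 7 to 9 tags, against 60.0% of 60 peaks on ear peaks. With 13 to 17 tags it was 85.2% of 81 members, against 39.2% of 125 peaks on ear peaks. With 25 tags or more it was 53.6% of 28 members, against 10.3% of 243 peaks on ear peaks. At 4 to 6 tags the intervals overlapped, at 77.4% (60.2 to 88.6) of 31 members and 68.8% (51.4 to 82.0) of 32 peaks on ear peaks. In both classes the share was lowest in the peaks with the most tags.

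**Figure D3:**
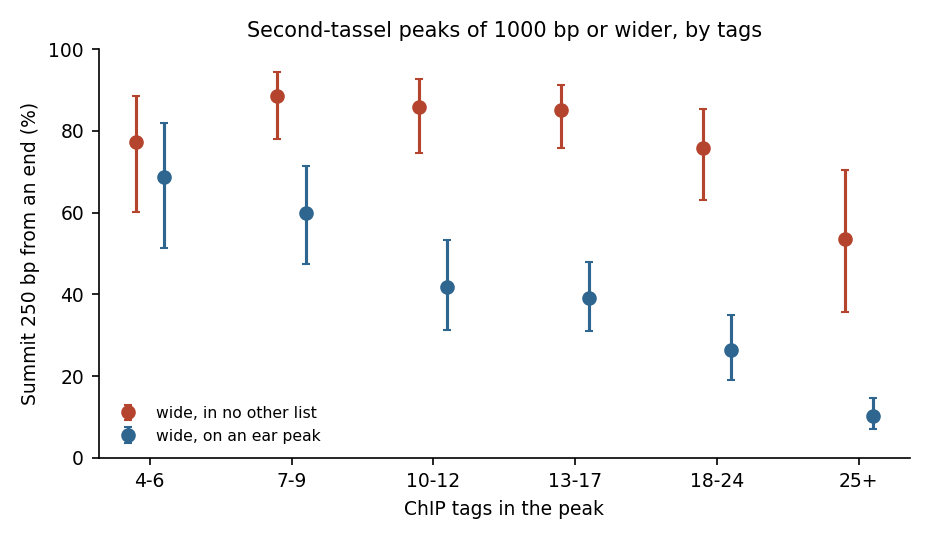
Points give the percentage of second-tassel peaks of 1000 bp or more whose summit lay 250 bp from an end, in 6 bands of ChIP tags, for members (red, left of each pair) and peaks on an ear peak (blue), with 95% Wilson intervals. Members lie above in every band, and the intervals overlap in the band of 4 to 6 tags alone.

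The same measure was read in the first tassel, whose summits had no part in the choice of members. There, 450 peaks wider than 500 bp lay in neither other list, and 115 of the 164 with 1000 bp or more (70.1%, interval 62.7 to 76.6) had the summit 250 bp from an end. Of the first-tassel peaks of that width on ear peaks, 31 of 79 did (39.2%, 29.2 to 50.3). In the ear list, where the smallest peak is narrower, 1 of 719 peaks of 1000 bp or more did. Those on ear peaks held more tags, however, with a median of 17 over all wide ones, against 9 in the wide peaks of neither other list. At like tags the first-tassel intervals overlapped in every band, as at 4 to 6 tags, with 30 of 40 peaks in neither other list (75%, 59.8 to 85.8) and 11 of 12 on ear peaks (91.7%, 64.6 to 98.5). With 25 tags or more they were 4 of 32 (12.5%, 4.97 to 28.1) and 2 of 41 (4.88%, 1.35 to 16.1). At 18 to 24 tags they were 12 of 12 (100%, 75.8 to 100) and 6 of 10 (60%, 31.3 to 83.2). The share was lower in peaks of neither other list at 4 to 6 and at 7 to 9 tags, and higher in the other bands. With so few peaks per band, the first tassel cannot show whether the difference holds there at like tags.

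Among the longer members, those with a summit at 250 bp from an end were somewhat poorer in tags than the others. The 252 had a median of 12 tags and a median score of 159, against 16 tags and 227 in the other 60. The summit lay towards the lower coordinate in 137 of the 252 and towards the higher in 115. Where an ear peak lay within 5 kb, it was on the side of the summit in 38 of 76 members and on the other side in 38. Members of 1000 bp or more rarely went far beyond that width: 288 of 312 (92.3%, 88.8 to 94.8) were at most 1500 bp, against 496 of 652 (76.1%, 72.7 to 79.2) of those on ear peaks.

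Many members lay close to an ear peak without touching one. An ear peak was found within 5 kb of 338 of the 961 members (35.2%, interval 32.2 to 38.2), against 24.8% of all second-tassel peaks that no ear peak overlaps and 2457 of the 10335 peaks of 500 bp in no other list (23.8%, 23.0 to 24.6). The gap had a median of 12.6 kb in members and 23.4 kb in the 500 bp peaks. At shorter range, 135 members (14.0%, 11.99 to 16.4) lay within 1 kb of an ear peak, against 7.82% (7.32 to 8.35) of the 500 bp peaks. The share within 5 kb was higher in members than in the 500 bp peaks on 10 of 10 chromosomes. On single chromosomes it ran from 30.7% on chromosome 7 to 46.3% on chromosome 3 in members, against 20.9% to 26.9% in the 500 bp peaks.

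Counted around the centre of each member, the ear list was densest just beyond the peak itself. From 1 to 2 kb from the centre there were 66.1 ear peaks per Mb, against 38.8 around the 500 bp peaks and 11.99 over the chromosomes. From 4 to 5 kb there were 42.1 around members and 25.8 around the 500 bp peaks, and from 50 to 100 kb 14.7 and 13.2. Around wide peaks on ear peaks the ear list was denser still, at 94.7 per Mb from 1 to 2 kb and 51.7 from 4 to 5 kb. The density of ear peaks is therefore not particular to members. Within 1 kb the rule leaves out ear peaks that overlap, so the 27.1 per Mb found there is not comparable with the rest. Ear peaks of 10 or more tags gave the same order from 1 to 2 kb. There were 26.01 per Mb around members, 53.5 around wide peaks on ear peaks, 13.9 around the 500 bp peaks and 3.04 over the chromosomes.

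**Figure D4:**
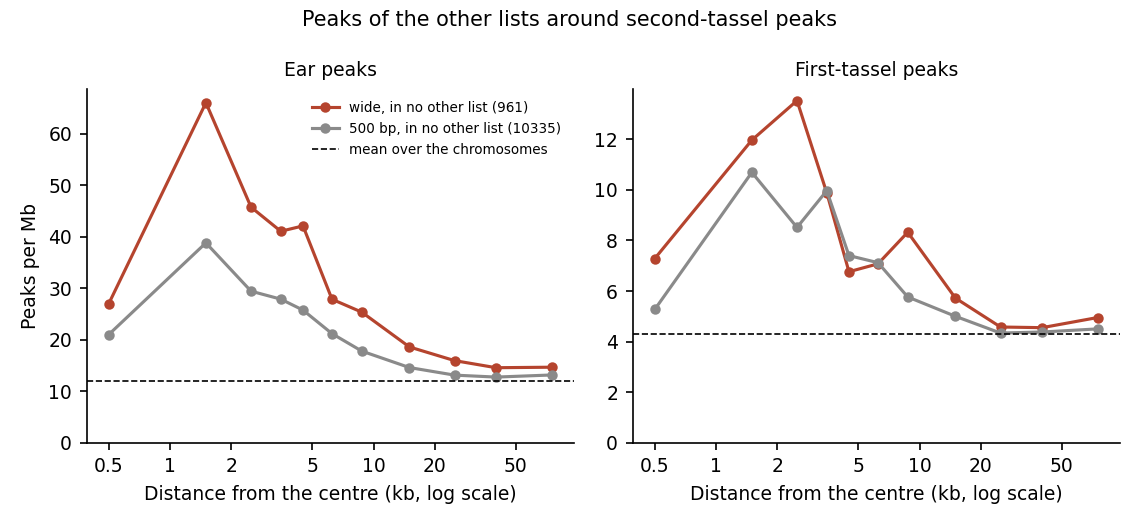
Peaks of the ear list (left) and of the first-tassel list (right) per Mb, by distance in kb (log scale) from the centre of members (red) and of 500 bp second-tassel peaks in no other list (grey), with the mean over the chromosomes dashed. Ear peaks around members reach 66.1 per Mb at 1 to 2 kb and stay above the grey line out to 100 kb. First-tassel peaks have a vertical scale of their own. They reach 13.5 per Mb around members at 2 to 3 kb, against 8.51 around the 500 bp peaks. In each bin from 3 to 7.5 kb they are less dense around members, as at 3 to 4 kb, with 9.89 against 9.97. From 7.5 to 10 kb they are denser around members again, with 8.32 against 5.77.

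The ear peaks beside members held somewhat more tags than the ear list as a whole, and their FDR was no better than for most of it. The 333 ear peaks nearest to those 338 members had a median of 7 tags (quartiles 4 and 13), where all ear peaks on the numbered chromosomes had 5 (4 and 10), and the ear peaks on wide second-tassel peaks had 21 (12 and 35). An FDR of 100% was carried by 317 of the 333 (95.2%), and 1 had an FDR of at most 20%. Counting ear peaks with an FDR under 100% alone, 24 of the 961 members lay within 5 kb of one (2.50%, 1.68 to 3.69), against 1.37% (1.17 to 1.62) of the 500 bp peaks. With ear peaks of 10 or more tags the shares were 157 of 961 members (16.3%, 14.1 to 18.8) and 8.66% (8.13 to 9.22) of the 500 bp peaks. Members were thus nearer to the ear list in each count, but most of the ear peaks behind the share of 35.2% had an FDR of 100%.

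Nearness to the ear showed no steady trend with the tags of a member. The share within 5 kb of an ear peak was 42.7% (35.2 to 50.5) of the 157 members with 4 to 6 tags, 30.7% (24.6 to 37.6) of the 192 with 7 to 9, 34.2% (28.3 to 40.7) of the 222 with 13 to 17 tags and 36.0% (26.1 to 47.3) of the 75 with 25 or more. By width it was 36.6% (29.6 to 44.2) at 502 to 600 bp and 29.2% (22.4 to 37.1) above 1250 bp. These intervals overlapped, which does not show that the shares are equal. The Spearman correlation of the gap with tags was 0.01 over 961 members.

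First-tassel peaks were near fewer members, in a list of 8876 peaks against 24737 in the ear list. Relative to each list's mean over the chromosomes, first-tassel peaks were 2.78 times as dense from 1 to 2 kb around members, and ear peaks 5.51 times. From 2 to 3 kb these values were 3.14 and 3.82. Around the 500 bp peaks in no other list they were 2.48 and 3.24 from 1 to 2 kb, and 1.98 and 2.46 from 2 to 3 kb. From 4 to 5 kb first-tassel peaks were 1.57 times as dense around members and 1.72 times around the 500 bp peaks. A first-tassel peak lay within 1 kb of 32 members (3.33%, 2.37 to 4.66), against 2.05% (1.80 to 2.34) of the 500 bp peaks in no other list, and within 2 kb of 57 members (5.93%, 4.61 to 7.61), against 4.03% (3.66 to 4.42). Within 5 kb the intervals overlapped, at 99 members (10.3%, 8.54 to 12.4) and 8.71% (8.18 to 9.27) of the 500 bp peaks. Other peaks of the second-tassel list lay within 5 kb of 238 members (24.8%, 22.1 to 27.6), against 19.2% of the whole list and 15.6% (14.9 to 16.3) of the 500 bp peaks. The share was higher still in wide peaks on ear peaks, at 30.6% (28.5 to 32.7), so it is not particular to members. For wide first-tassel peaks in neither other list, an ear peak lay within 5 kb of 86 of 450 (19.1%, 15.7 to 23.0), against 19.8% (18.9 to 20.7) of first-tassel peaks of 500 bp in no other list. The greater nearness of wide peaks to the ear list was therefore not seen in the first tassel.

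Members lay towards the chromosome ends. The outer 40% of the chromosomes, 20% at each end, held 530 of 961 members (55.2%, interval 52.0 to 58.3), against 50.9% of the whole second-tassel list. This lay between wide peaks on ear peaks, at 61.2% (59.0 to 63.4), and the 500 bp peaks in no other list, at 47.1% (46.1 to 48.0). Members exceeded the 500 bp peaks on 10 of 10 chromosomes and lay below the wide peaks on ear peaks on 9, with chromosome 4 the exception (54.1% of members and 37.9% of peaks on ear peaks). The thinnest stretch lay from 40 to 50% of the chromosome length, with 4.27% of members, against 2.15% of wide peaks on ear peaks and 7.96% of the 500 bp peaks. Of all second-tassel peaks, 49.5% in the outer parts lay on or within 5 kb of an ear peak, against 33.7% in the inner parts. Nearness was therefore read within each part. In the outer parts 38.3% (34.3 to 42.5) of members lay within 5 kb of an ear peak, against 29.98% (28.7 to 31.3) of the 500 bp peaks. In the inner parts the shares were 31.3% (27.1 to 35.8) of members and 18.3% (17.3 to 19.3) of the 500 bp peaks.

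**Figure D5:**
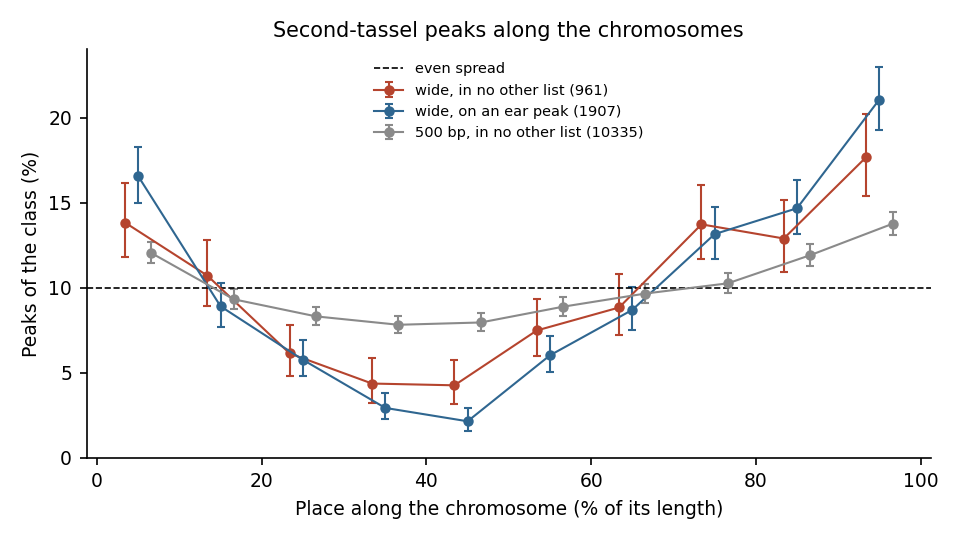
The percentage of each class of second-tassel peaks in each 10% of the chromosome length, pooled over 10 chromosomes, with 95% Wilson intervals, for members (red), wide peaks on an ear peak (blue) and 500 bp peaks in no other list (grey). Members dip to 4.37% and 4.27% between 30 and 50% of the length and reach 17.7% in the last 10%.

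Position and strength were linked weakly among members. The outer parts held 65.0% (57.2 to 72.0) of the members with 4 to 6 tags and 45.3% (34.6 to 56.6) of those with 25 or more, with 52.0 to 57.2% in the bands between. The same shares in wide peaks on ear peaks were 63.6% and 59.5%. The members with the most tags were thus found in the chromosome interiors more often than those with the fewest, with intervals that do not overlap. Members per Mb ran from 0.40 on chromosome 8 to 0.56 on chromosome 1.

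Most members stood away from other members. With gaps of at most 50 kb between neighbours, 877 of 961 members stood alone, 72 fell in 36 pairs and 12 in 4 groups of 3. The 8.74% in pairs and groups stand beside 26.5% of the wide peaks on ear peaks and 45.2% of the 500 bp peaks, each within 50 kb of another of its class, but those classes hold more peaks and the shares rise with number. Without the ear list in the rule, which gives 2633 peaks, the share would have been 29.6%. The group with the most tags spanned 34.9 kb on chromosome 1 (271314120 to 271315568, 271344300 to 271345680 and 271347849 to 271348992), with 14, 12 and 29 tags. A first-tassel peak lay within 6 kb of each of its members, at 1169, 1682 and 5231 bp. The next spanned 38.8 kb on chromosome 5 (63280015 to 63281066, 63283243 to 63284278 and 63318299 to 63318828), with 16, 17 and 9 tags and first-tassel peaks 3899, 687 and 32835 bp away. The most compact spanned 8.62 kb on chromosome 1 (188926150 to 188926700, 188928700 to 188929737 and 188934144 to 188934770), with 12, 18 and 11 tags. First-tassel peaks lay at least 187 kb away, and ear peaks lay 9086, 6049 and 1016 bp from its members.

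At the limits of the rule, members and the peaks left out were alike in some values and not in others. The 41 members of 501 bp had a median of 12 tags and a score of 437, and the 10335 peaks of 500 bp in no other list had a median of 8 tags and a score of 244. The width of 501 bp was held by 55 peaks of the list and that of 500 bp by 11951. Of the 55, 74.5% were members, against 38.4% of the wide peaks of 502 to 600 bp. By overlap, the nearest members to an ear peak lay 5 bp (chromosome 5, 61523632 to 61524486, 5 tags), 12 bp (chromosome 5, 3780973 to 3782097, 23 tags) and 23 bp away (chromosome 8, 168366067 to 168367297, 7 tags). The members nearest to a first-tassel peak lay 9 bp (chromosome 8, 123913150 to 123914453, 5 tags) and 30 bp away (chromosome 1, 275770531 to 275771953, 11 tags). Wide peaks that fell just outside the rule shared 4 bp (chromosome 6, 12419592 to 12420897, 13 tags), 8 bp (chromosome 1, 279186751 to 279187653, 17 tags) and 22 bp (chromosome 9, 145058160 to 145059245, 13 tags) with an ear peak. A gap of at most 100 bp to an ear peak was found for 16 members, and an overlap of at most 100 bp for 19 wide peaks. Across all wide peaks the share that were members fell with tags, being 14.9% of those with 25 tags or more and 43.5% of those with 4 to 6. Since the overlap chose the members, this is a description of the choice.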

How the data were processed

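KN1 ChIP peak lists of 2 tassel samples and 1 ear sample were used. The inputs were not analysed here. Per the labels, input DNA served as the normalisation control. Bowtie and CASAVA are named in the submitters' processing notes, and peak names follow MACS. The sources used here do not give aligner settings, a MACS version or a build. The lists have no header, and columns were read in MACS's usual order. The deposited score is 10 times the -log10 of the caller's p-value and lies at or above 50 in every peak. The deposited tag count is a whole number of ChIP tags. The deposited fold is a ratio to local background. The deposited percent column was read as MACS's empirical FDR. Scores, counts and folds are the authors' own values per peak and were used only within a list.

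Peaks sharing at least 1 bp were taken as overlapping. The gap between peaks is start minus end. Computation used Python 3.11.15, numpy 2.4.6, pandas 2.3.3, scipy 1.17.1 and matplotlib 3.10.9. bedtools 2.31.1 gave the same 961 members, and the distance search was tested on simulated data. The highest peak end of any list stood in for chromosome length. No depth is known beyond tags in peaks. Tags lack molecular identifiers and neighbouring peaks share their surroundings, so intervals cover counting error alone. Regions named are the 10 members with the most tags, the 10 best scoring, the 5 widest, the 5 of highest fold, the 3 richest groups at 50 kb, 1 of median tags and those at the rule's limits. The members, the comparison classes and the measures were chosen with earlier results of these data known, and the summit comparison after its values were seen. Alternatives changed overlap, width, score, FDR and the lists used.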

Additional observations from a re-analysis of the deposited data

Results flagged for a closer look

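Of the 25 second-tassel peaks outside the numbered chromosomes, which the comparisons left out, 4 were wider than 500 bp and lay in no other list. They are named because they exceed the 3 that a count of 0 allows, which is no test against a background. On mitochondrial sequence there were 2, with 29 tags at 24.1-fold and 42 tags at 6.02-fold. Plastid sequence held 1, with 47 tags at 20.9-fold, and unplaced sequence held 1, with 5 tags at 112-fold. The inputs, which would give the background on these sequences, were not analysed here.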

How the results depend on the processing

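Of 61 alternative values, 34 stayed within the 95% interval of the reported value or, for the number of members, within 1.5 times of it, and 27 moved. Leaving out ear peaks with fewer than 10 tags, changing the ear peaks for the distance alone, leaving out members of 25 or more tags, and every alternative for the summit were chosen after the data were seen. The 961 members became 2660 with all lists held to an FDR of 20% or less, 2160 without ear peaks at an FDR of 100%, 576 above 750 bp, and 1035 or 2633 without the first-tassel or the ear list. The median of 12 tags became 13 with the FDR limit and with a score of at least 100, and 12 or 13 without the first-tassel or the ear list. The 55.2% in the outer chromosome parts became 59.4% with the FDR limit, 59.4% without ear peaks at 100%, and 55.0% or 59.7% without the first-tassel or the ear list. The 80.8% of longer members with the summit 250 bp from an end became 51.6% with the FDR limit, 60.0% without ear peaks at 100%, 70.0% at a score of at least 100, and 79.5% or 50.3% without the first-tassel or the ear list. Settings that drop ear peaks turn wide peaks on ear peaks into members by construction. The 35.2% within 5 kb of an ear peak became 0.827% with the FDR limit, which leaves 140 ear peaks, 3.98% without ear peaks at 100%, 16.8% at a score of at least 100, 17.5% with ear peaks of at least 10 tags, 29.7% with a margin of 500 bp, 16.3% and 2.50% for the same 961 members with the distance taken to ear peaks of 10 or more tags or with an FDR under 100%, and 39.8% where overlap had to reach 50% of the shorter peak. In each of these settings members stayed above 500 bp peaks in no other list, from 0.827% against 0.245% to 39.8% against 26.2%. Where overlap had to reach 50%, peaks with a smaller overlap with an ear peak joined both classes. They count as near an ear peak by construction, so the values of that setting describe the choice. Without the ear list this share has no value. The 8.74% within 50 kb of another member became 29.4% with the FDR limit, 23.9% without ear peaks at 100%, 11.5% at a score of at least 100, 10.7% with ear peaks of at least 10 tags, and 9.86% or 29.6% without the first-tassel or the ear list. The tags limit these results, since the median member rests on 12 of them, and absence from a list is absence at its unknown depth.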
